A study of Homo sapiens with 6 samples.

Results

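Circular RNAs (circRNAs) of host genes that encode RNA helicases, splicing factors and RNA decay factors were examined in Ishikawa cells, an established human endometrial carcinoma cell line. Members were the circRNAs whose host gene name begins with one of the family names DDX, DHX, RBM, SRSF, SRPK, SRRM, HNRNP, PRPF, SF3A, SF3B, CNOT, TNRC6, UPF, SMG, METTL, YTHD, ZCCHC, XRN, MBNL, CPSF or CSTF. They numbered 127 of 4814 circRNAs and came from 75 of 2531 host genes. The rule reads gene names and uses no measured value, but the families were chosen with earlier results of these data known. MPA-treated cells gave 3 libraries, and untreated control cells of the same line gave 3. The labels name MPA without spelling it out and state neither dose nor duration. They do not say whether each library is a culture of its own, so the p-values reflect variation among 6 libraries that may be technical in part or in whole.

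A circRNA forms when the spliceosome joins the donor end of an exon back to an upstream acceptor, which leaves a closed RNA with a back-splice junction that the linear mRNA lacks. The proteins of these families act on RNA at successive steps: helicases remodel RNA and RNA-protein complexes, splicing factors choose exons, and decay factors shorten the poly(A) tail or degrade the transcript. The circRNAs of such genes are products of the genes themselves, and their level does not give the level of the linear mRNA or of the protein.

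The measurement was the count of reads that span each back-splice junction. MPA libraries 1 to 3 held 4468, 4339 and 5454 junction reads in all, and control libraries 1 to 3 held 4316, 3740 and 3743. The member circRNAs held 623 of the 26060 reads (2.39%). Counts were low, since 101 of the 127 members had 5 reads or fewer over the 6 libraries and 2 members had 30 or more. In the smallest library, of 3740 reads, a circRNA with no read could still have made up 0.0802% of the junction reads (3 counts, counting error only). Of 14 marker genes of epithelium or endometrium, 5 were circRNA hosts, with 18 MPA and 7 control reads, and of 17 markers of stroma, endothelium and blood 1 was a host, the fibrillin gene FBN1 with 3 reads.

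Junctions of 7 members are shown first, since a back-splice junction is the sequence that was counted. They are the 3 circRNAs with the most reads and, for RBM39 and UPF2, circRNAs that show several donors joined to 1 acceptor. Each is built from exon models of the GENCODE v29 transcripts on GRCh38, on the strand of the gene. Lower case gives the last 20 bases of the last exon of the circle, and capitals give the first 20 bases of its first exon, which follow directly in the circle. The 3 RBM39 junctions share their capitals, and so do the 2 UPF2 junctions, because each set starts at 1 acceptor.
hsa_circ_0000213 of UPF2: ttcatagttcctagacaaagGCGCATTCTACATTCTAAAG
hsa_circ_0017711 of UPF2: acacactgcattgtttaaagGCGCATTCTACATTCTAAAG
hsa_circ_0000523 of METTL3: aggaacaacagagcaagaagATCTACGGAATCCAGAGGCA
hsa_circ_0000039 of YTHDF2: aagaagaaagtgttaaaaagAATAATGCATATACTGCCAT
hsa_circ_0004870 of RBM39: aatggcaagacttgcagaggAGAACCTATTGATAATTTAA
hsa_circ_0001147 of RBM39: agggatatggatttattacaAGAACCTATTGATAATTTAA
hsa_circ_0001148 of RBM39: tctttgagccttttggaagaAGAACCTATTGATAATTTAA
The exons were matched to each circRNA by its genomic span and spliced length, not by reading a genome of the build used by the table, which is hg19.

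The members' share of all junction reads was 2.89%, 2.24% and 2.66% in the MPA libraries, against 2.02%, 2.19% and 2.22% in the control libraries. The mean was 2.59% ± 0.331 with MPA and 2.14% ± 0.110 in controls (SD, n = 3 each). The groups did not overlap, but MPA library 2 lay almost on control library 3, and the exact binomial 95% intervals of all 6 libraries overlapped. Overlap of these intervals does not test the difference between the groups. The pooled share ratio, MPA over control, was 1.22, with an exact 95% interval of 1.04 to 1.44. That interval covers counting error only and leaves out variation between libraries. No p is given for a sum over chosen genes. In cell culture RNA of this kind, fewer cells that make a circRNA and less of it per cell cannot be told apart.

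Most of the gap between the groups lay in circRNAs read few times, and all shares here are of all junction reads. Members read in 1 library only held 0.751% ± 0.313 of the reads with MPA and 0.444% ± 0.148 in controls, while members read in 2 or more libraries held 1.84% ± 0.0823 with MPA and 1.70% ± 0.153 in controls (SD, n = 3 each). The other circRNAs read in 1 library only also held a larger share with MPA, 20.7% ± 0.794 against 18.3% ± 1.33 in controls. For circRNAs read in 1 library the direction was therefore not particular to the members. The other circRNAs read in 2 or more libraries went the other way from the members, with 76.7% ± 0.901 with MPA and 79.6% ± 1.24 in controls. The 11 members with a mean of at least 2 reads held 0.858% ± 0.123 with MPA and 0.829% ± 0.122 in controls. Reads in MPA libraries alone were found for 54 members (42.5%), against 26 with control reads alone (20.5%). Among the other circRNAs the shares were 32.4% and 25.3%. Every listed circRNA had at least 2 reads in some library. One read in 1 library or 1 group only was therefore listed through its reads there, and these counts are a description only. The MPA libraries also held more junction reads in all. The part of that depth and of the listing floor in these counts was not tested.

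**Figure D1:**
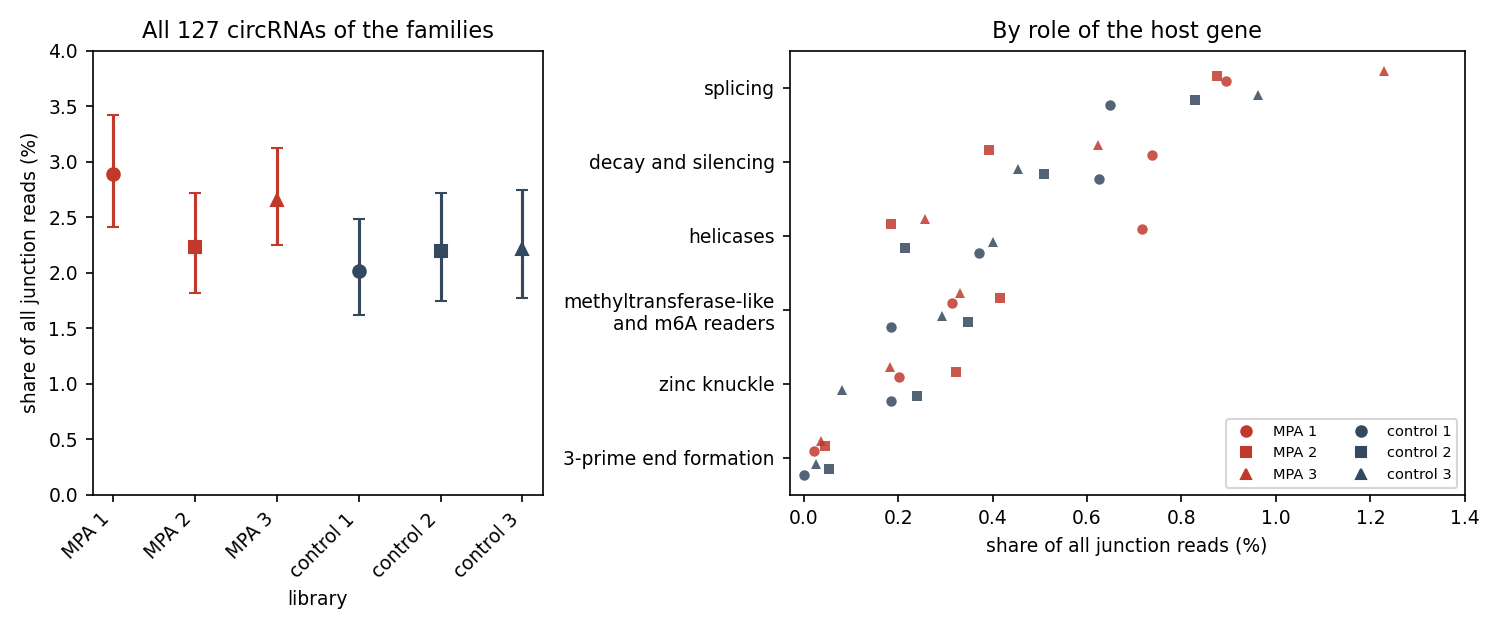
Left, the share of all junction reads (%) held by the 127 circRNAs in each library, with exact binomial 95% intervals as bars. Right, the share by role of the host gene, 1 point per library, MPA red above control blue-grey. The MPA libraries lie at 2.24% to 2.89% and the control libraries at 2.02% to 2.22%, and within each role the groups overlap.

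By role, which was assigned from the family name alone, the groups overlapped in each of the 6 role groups. The 51 circRNAs of splicing genes held 0.9998% ± 0.198 of the reads with MPA and 0.813% ± 0.157 in controls. The 31 of decay and silencing genes held 0.585% ± 0.177 with MPA and 0.529% ± 0.0877 in controls, and the 23 of helicase genes 0.386% ± 0.288 with MPA and 0.328% ± 0.100 in controls. The helicase share had its widest spread with MPA, since MPA library 1 had 32 reads there and MPA libraries 2 and 3 had 8 and 14. The 6 circRNAs of methyltransferase-like genes and readers of N6-methyladenosine (m6A) held 0.353% ± 0.0544 with MPA and 0.276% ± 0.0826 in controls. The 13 of zinc knuckle genes held 0.236% ± 0.0757 with MPA and 0.169% ± 0.0815 in controls, and the 3 of 3-prime end formation genes had 8 reads in all (SD, n = 3 each). Of these 8 reads, 2 came from CPSF1P1, a pseudogene by its name. No circRNA of the MBNL or CSTF families was listed.

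Among the decay genes, hsa_circ_0000213 of UPF2, an adaptor protein of nonsense-mediated decay, tied with METTL3 for the most reads of any member (chr10:12039671-12056183 on hg19, exons 4 to 8 of 22, 699 bases, all coding). It had 3, 9 and 7 reads in the MPA libraries, against 9, 2 and 2 in the control libraries. Control library 1 was as high as any MPA library and the groups overlapped. Its log2 fold change was 0.30 (SE 0.662, 95% interval -1.002 to 1.60, n = 3 each), which did not pass the threshold (edgeR quasi-likelihood test, adjusted p = 0.936). Without control library 3 its value was -0.089, and without control library 1 it was 1.41, so that single libraries decide it.

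In all, 91 circRNAs had the mean of at least 5 reads needed for this test, and 0 of them (0%) passed a false discovery rate of 0.05. The 2 members tested were those of UPF2 and METTL3, and 0 passed. Of all 91, 2 had an unadjusted p under 0.05, 1 in each direction, and DESeq2 also gave 0 past the threshold. The median log2 fold change was 0.14 over all 91 circRNAs.

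With reads summed per host gene, 0 of 180 host genes tested passed (0%), among them UPF2, RBM39 and METTL3. An unadjusted p under 0.05 was found for 3 of the 180, none a member, and DESeq2 called 0. UPF2 had 8, 10 and 9 summed reads with MPA, against 10, 4 and 3 in controls. The MPA libraries lay close together and above control libraries 2 and 3, and control library 1 matched the highest of them. The log2 fold change was 0.47 (SE 0.562, n = 3 each; edgeR adjusted p = 0.946).

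All 4 circRNAs of UPF2 began at the same acceptor, that of exon 4, and ended at exon 6, 8, 10 or 15. hsa_circ_0000213 held 72.7% of their 44 reads. Next came hsa_circ_0017711 (exons 4 to 10, 922 bases), with 1, 1 and 0 reads in the MPA libraries, against 1, 2 and 1 in the control libraries. Its share was lower in every MPA library than in every control library, yet 1 read stands on both sides, and the difference there comes from the larger MPA totals. The pooled share ratio was 0.414, with an exact 95% interval of 0.0374 to 2.89 that covers counting error only.

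CNOT2, a scaffold subunit of the CCR4-NOT deadenylase complex, gave hsa_circ_0007127 (chr12:70671912-70704797, exons 2 and 3, 266 bases, with the start codon). It had 3, 2 and 12 reads with MPA, against 5, 1 and 4 in controls. MPA library 3 alone was high. XRN2, the nuclear 5-prime to 3-prime exonuclease, had 18 reads over 4 circRNAs, 5, 3 and 3 with MPA against 2, 4 and 1 in controls. CNOT6, a catalytic deadenylase subunit, had 6, 2 and 1 with MPA against 0, 2 and 5 in controls. The highest and lowest libraries of CNOT6 stood on both sides.

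SMG1, the kinase that phosphorylates UPF1 in nonsense-mediated decay, had 10 reads over 4 circRNAs, 5, 0 and 0 with MPA against 3, 2 and 0 in controls. The genome holds near-identical pseudogene copies of SMG1, and 1 of them, SMG1P5, was itself listed with 2 reads, and which locus gave these reads is uncertain. TNRC6C, a partner of Argonaute proteins in silencing by miRNAs, had 2 reads, both in control library 2.

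Among the methyltransferase-like genes and m6A readers, hsa_circ_0000523 of METTL3, the catalytic subunit of the m6A writer, was the most even member (chr14:21971316-21972024, exons 2 and 3 of 11, 623 bases). It had 6, 5 and 6 reads with MPA, against 5, 5 and 5 in controls. The log2 fold change was -0.05 (SE 0.658, 95% interval -1.34 to 1.25, n = 3 each; edgeR adjusted p = 0.973), so a change of 1 log2 unit in either direction lies within the interval. The sign of this value turned with the filter on low counts and with the scaling.

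YTHDF2, a cytoplasmic m6A reader that recruits the deadenylase complex, gave hsa_circ_0000039, made of exon 4 alone (chr1:29068915-29070498, 1584 bases). It had 3, 7 and 8 reads with MPA, against 3, 3 and 4 in controls. MPA libraries 2 and 3 were above every control library and MPA library 1 was not. At the wider filter, a mean of at least 2 reads, edgeR put its log2 change at 0.65 (SE 0.712, n = 3 each; adjusted p = 0.994). METTL8, a methyltransferase that acts on mitochondrial tRNA, had 4, 2 and 2 reads of hsa_circ_0057041 with MPA, against 0, 3 and 2 in controls.

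At that wider filter, 0 of 382 circRNAs passed (0%), 11 of them members, and 0 of 565 host genes passed (0%), 15 of them members. The smallest adjusted p was 0.863 over the circRNAs and 0.988 over the host genes (edgeR). Of the 382 circRNAs, 12 had an unadjusted p under 0.05, none a member, and of the 565 host genes 19 did, 1 of them a member. The median log2 fold change was 0.32 over the 11 member circRNAs and 0.07 over all 382. Over the 15 member host genes it was 0.19, and over all 565 it was 0.02.

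Among the splicing genes, RBM39, a U2AF-related splicing factor, had the most summed reads of any member host, 50 over 6 circRNAs. It had 4, 6 and 14 reads with MPA, against 4, 9 and 13 in controls. Library 3 was the highest of its group on both sides. The log2 fold change was -0.36 (SE 0.533, n = 3 each; edgeR adjusted p = 0.955), and without control library 3 it was 0.058.

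Of the 6 circRNAs of RBM39, 4 began at the acceptor of exon 7 and ended at exon 9, 10, 11 or 12, and they held 44 reads, 22 with MPA and 22 in controls. The most read of them, hsa_circ_0004870 (chr20:34302107-34313077, exons 7 to 11, 680 bases), had 1, 3 and 6 reads with MPA, against 3, 5 and 6 in controls. hsa_circ_0001147 (exons 7 to 10) had 0, 0 and 4 with MPA against 1, 2 and 2 in controls, and hsa_circ_0001148 (exons 7 to 9) had 3, 0 and 3 with MPA against 0, 0 and 3 in controls. The groups overlapped for all 3.

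**Figure D2:**
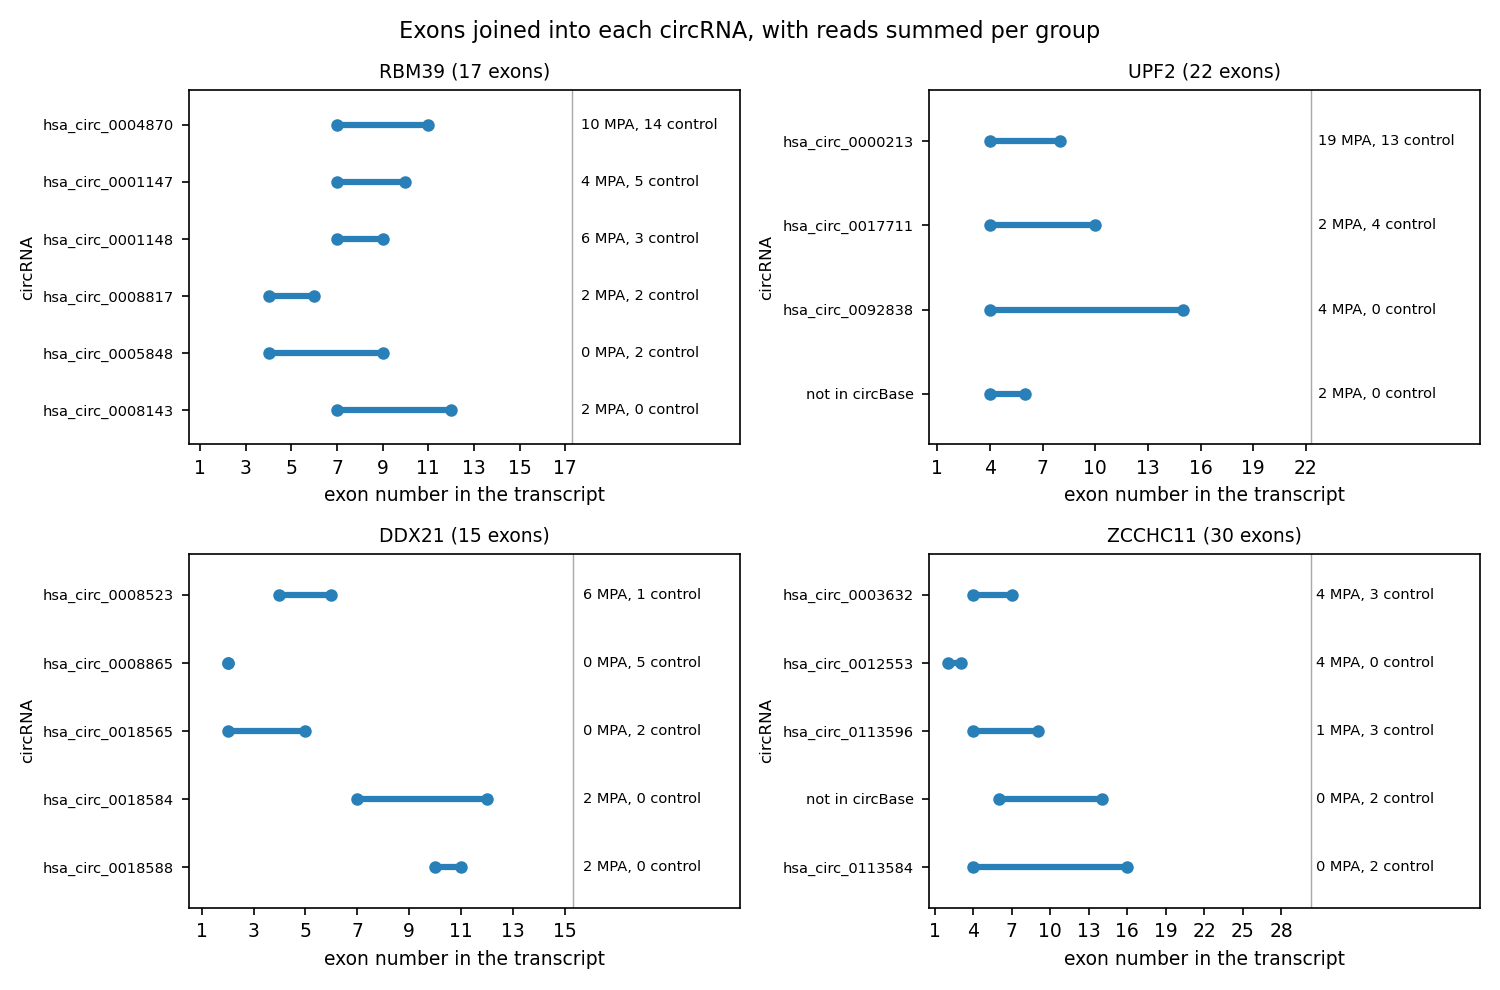
Exons joined into each circRNA of 4 hosts with 4 or more circRNAs. The x axis is the exon number in the matched transcript, each line runs from the first to the last exon of a circRNA, and the reads at the right are summed over the 3 libraries of each group. For RBM39 4 circRNAs begin at exon 7 and for UPF2 all 4 begin at exon 4, and 1 DDX21 circRNA that could not be drawn on exons is left out.

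RBM6, an RNA-binding splicing regulator, gave 2 circRNAs from separate parts of the gene. hsa_circ_0065769 (exons 3 to 5) had 2, 0 and 3 reads with MPA against 3, 2 and 5 in controls, and hsa_circ_0006531 (exons 16 and 17) had 5, 3 and 2 with MPA against 0, 2 and 2 in controls. At a mean of at least 2 reads the log2 fold change was -1.12 (SE 1.03) for hsa_circ_0065769 and 1.09 (SE 1.08) for hsa_circ_0006531, and neither passed (edgeR, adjusted p = 0.994 for each). The groups overlapped for both, and the difference between the 2 circRNAs was not tested.

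The other hosts placed among the splicing genes by name had 21 reads or fewer each. RBM33 had 4, 6 and 3 reads with MPA against 4, 0 and 4 in controls, and SRSF4, a serine and arginine rich splicing factor, had 1, 7 and 4 with MPA against 4, 2 and 1 in controls. RBM5, a regulator of alternative splicing of apoptosis genes, had 5, 0 and 4 with MPA against 0, 0 and 1 in controls, so its groups overlapped at MPA library 2. RBM4 had 1, 0 and 2 with MPA against 4, 0 and 3 in controls.

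PRPF39, the relative of a yeast U1 snRNP factor, had 2, 3 and 1 reads with MPA against 2, 1 and 1 in controls. SRPK1, a kinase of serine and arginine rich proteins, had 4, 0 and 3 with MPA against 0, 3 and 0 in controls, over 3 circRNAs that share 1 acceptor. SF3B1, the largest subunit of the U2 snRNP factor SF3B, had 4 reads, all in MPA library 3. HNRNPM had 6 reads, SRRM2 had 4, and these counts allow no comparison. The HNRNPC and HNRNPA3 genes have close paralogs or pseudogenes, so their 5 and 3 reads are uncertain in origin.

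Among the helicase genes, DDX21, a nucleolar helicase of ribosomal RNA processing, had 21 reads over 6 circRNAs, 7, 1 and 2 with MPA against 4, 0 and 7 in controls. The groups overlapped. hsa_circ_0008523 (exons 4 to 6) had 3, 1 and 2 reads with MPA against 0, 0 and 1 in controls, and hsa_circ_0008865 (exon 2) had 0, 0 and 0 with MPA against 2, 0 and 3 in controls. The groups overlapped for both. These 2 circRNAs were picked out after their values were seen, and neither reached a mean of 2 reads.

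DHX34, a helicase of nonsense-mediated decay, had 3, 0 and 2 reads with MPA against 3, 1 and 3 in controls. DDX26B, which the rule takes by its name, had 2, 2 and 0 with MPA against 1, 1 and 4 in controls. Its current symbol is INTS6L, and it encodes a relative of an Integrator subunit and not a DEAD-box helicase of the usual kind. CPSF3, the endonuclease that cuts pre-mRNA at the poly(A) site, led the 3-prime end genes with 1, 0 and 0 reads with MPA against 0, 2 and 1 in controls.

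Among the zinc knuckle genes, ZCCHC7, a subunit of the TRAMP complex that marks nuclear RNA for the exosome, was the one host whose groups did not overlap. It had 3, 7 and 2 reads with MPA, against 0, 1 and 0 in controls. The pooled share ratio was 9.93, with an exact 95% interval of 1.47 to 424 that covers counting error only and rests on 1 control read. At a mean of at least 2 reads the fitted log2 change was 2.97 (SE 1.46, n = 3 each), with an unadjusted p of 0.0413 and an adjusted p of 0.988 (edgeR). Of the 565 host genes, 2.12% had such an unadjusted p in the higher direction and 1.24% in the lower direction, and 1 of 15 members did.

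Most of these reads belonged to hsa_circ_0001860 (chr9:37126309-37126939, exon 2 of 9, 631 bases, with the start codon), which had 2, 5 and 2 reads with MPA, against 0, 1 and 0 in controls. Every MPA library was above every control library. ZCCHC11, now named TUT4, a uridylyltransferase that tails RNA, had 3, 2 and 4 reads with MPA against 1, 8 and 1 in controls over 5 circRNAs, and control library 2 alone was high.

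Over the 26 member circRNAs with at least 6 reads, 1 had a higher share in every MPA library than in every control library, and 1 a lower one. Over all 1105 such circRNAs the percentages were 3.53% higher and 6.7% lower. Of 33 member host genes with at least 6 reads, 1 was higher throughout and 0 lower, against 4.04% and 5% of all 1139 host genes. The members' counts are near these backgrounds.

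**Figure D3:**
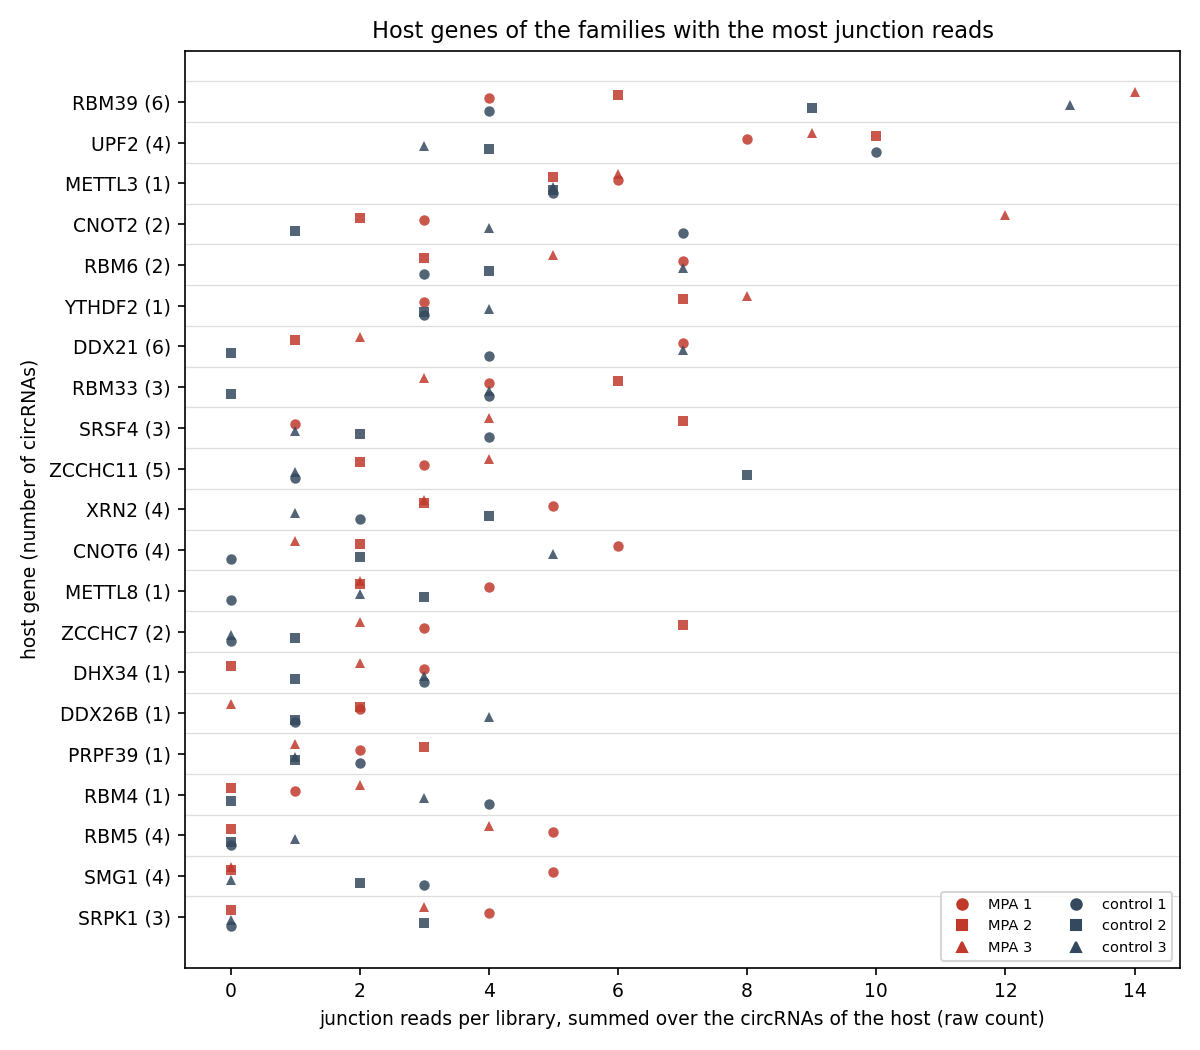
Junction reads per library, summed over the circRNAs of each host gene, for the 21 hosts with 10 or more reads (number of circRNAs in brackets). MPA libraries are red and stand above control libraries in blue-grey, with 1 marker shape per library number. ZCCHC7 is the host whose groups do not overlap.

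**Figure D4:**
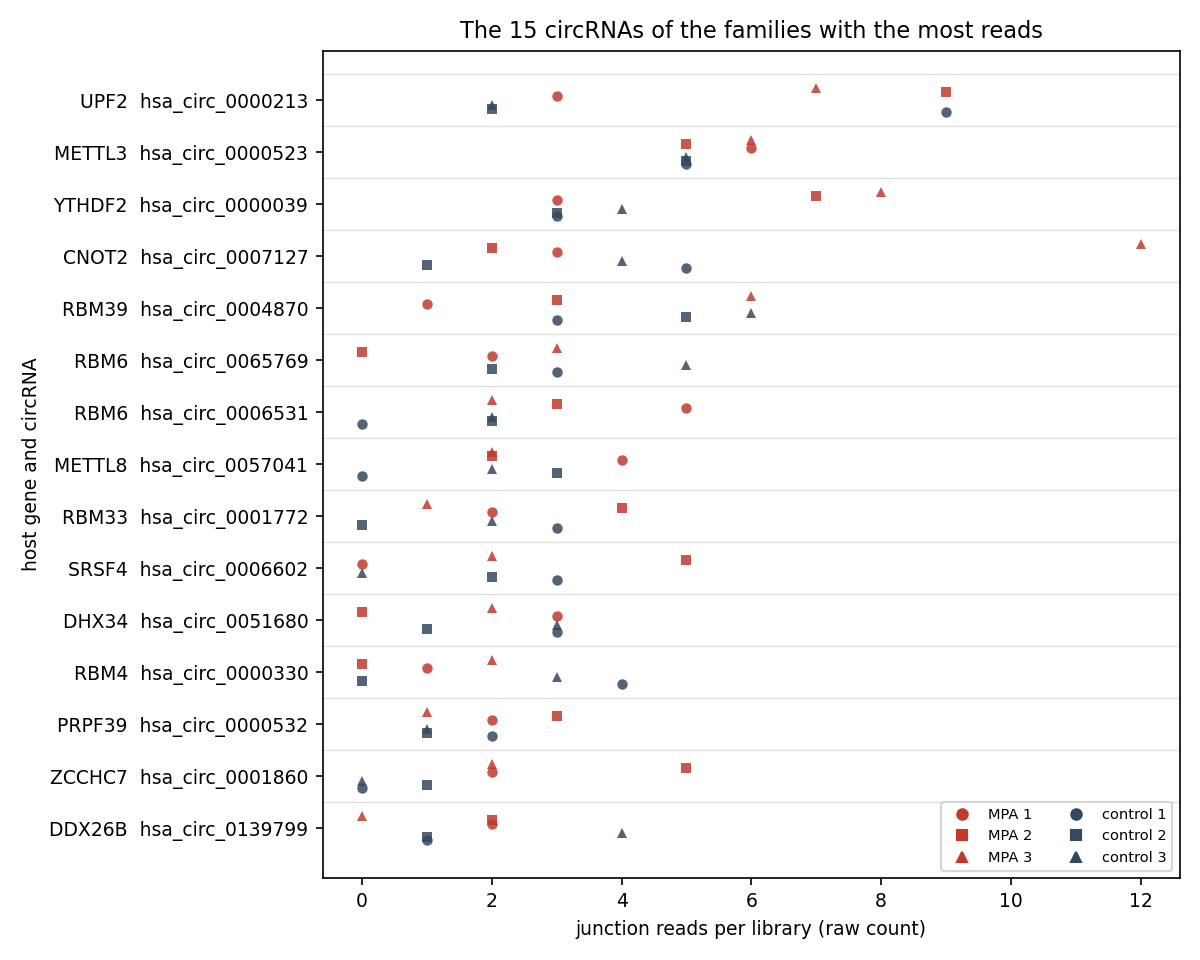
Junction reads per library of the 15 member circRNAs with the most reads, with MPA libraries in red above control libraries in blue-grey. The counts run from 0 to 12, METTL3 is the most even, and hsa_circ_0007127 of CNOT2 has its high value in MPA library 3.

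In class and predicted length the members were close to the other circRNAs of the table. Of the 127, 114 were exonic (89.8%, against 89.4% of the others), 12 overlapped their host in sense and 1 was intronic. A circBase identifier was given for 94 (74.0%, against 79.0%). The median predicted length of the exonic ones was 535.5 bases, against 551 for the others. Of the 111 placed on exons, 28 began at exon 2 (25.2%, against 30.1%) and none used the first or the last exon. Of these 111, 8 were 1 exon long (7.21%, against 4.17%) and 95 lay wholly in coding sequence (85.6%, against 83.3%). The median was 3 exons, against 4. These are descriptions with no test, since circRNAs of 1 gene share that gene.

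Host genes with 1 circRNA numbered 51 of 75 (68%, against 59.6% of the other hosts). Those with 4 or more numbered 8 (10.7%, against 11.6%): RBM39, DDX21, ZCCHC11, UPF2, XRN2, CNOT6, RBM5 and SMG1. Of the 76 circRNAs from hosts with more than 1, 44.7% shared an acceptor with another of the same host and 13.2% shared a donor. Among the other circRNAs from hosts with more than 1, these shares were 42.2% and 31.4%. An acceptor was shared at 14 places and a donor at 5.

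Of 115 other RNA processing genes outside these families, 52 were hosts, with 120 circRNAs and 581 reads. They held 2.12% ± 0.223 of all junction reads with MPA and 2.34% ± 0.337 in controls (SD, n = 3 each). The groups overlapped, and the means lay in the opposite order to those of the members. Of the 30 of these hosts with at least 6 reads, 0 were higher and 1 lower in every MPA library than in every control library. That host was PNN, which encodes the splicing-associated protein pinin, with 0, 0 and 0 reads with MPA, against 2, 2 and 5 in controls. With the MPA group set at a floor of 3 counts, its pooled share was 3.63-fold lower with MPA, which counts no error on the control reads. The pooled share ratio, MPA over control, had an exact 95% interval of 0 to 0.419 that covers counting error only. PNN did not reach a mean of 2 reads and was named after its values were seen. Of the list's hosts 3 were tested at a mean of at least 5 reads, namely ATXN2, PAN3 and LARP4, and 0 rose and 0 fell. At a mean of at least 2 reads 15 were tested and 0 passed. The smallest p was that of PTBP3, a polypyrimidine tract-binding splicing repressor, named after its value was seen. It had 0, 0 and 2 reads with MPA, against 5, 7 and 1 in controls, and MPA library 3 overlapped control library 3. edgeR put the change at -2.76 on the log2 scale (SE 1.22, n = 3 each, unadjusted p = 0.0235, adjusted p = 0.988).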

How the data were processed

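The deposited values are raw counts of reads over each back-splice junction, 1 column a library, per the file headers. CASAVA 1.8, BWA and build hg19 appear in the submitters' processing notes with no role stated. Which program called the circRNAs is not stated in the labels or headers. Host names, classes and predicted lengths are the authors' annotation, another deposited column of values. Log-scale columns of the same libraries (6) were not used. Libraries were grouped by their treatment label.

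The members and lists were chosen with earlier results of these data known. Named were members passing the filter of a mean of 5 reads, the 15 circRNAs and 20 hosts with most reads (ties kept), non-overlapping members with at least 6 reads, each family's leading host and hosts with 4 or more circRNAs.

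Counts of all circRNAs, and sums per host, went into edgeR 4.0.16 under R 4.3.3 (robust quasi-likelihood, group term, Benjamini-Hochberg adjustment at 0.05 over all features tested). Library sizes were whole-table totals. TMM factors were first computed from the whole table; after those results were seen they were computed from the filtered table instead, to match earlier processing of these data. The plan did not say which was meant, both are reported, and neither called a member. Standard errors were computed back from the test statistic. The steps were tested on simulated data. DESeq2 1.42.0 was the other count test. Exons were placed on GENCODE v29 transcripts. The main fit did not pair libraries by replicate number, since the labels give no shared source for equal numbers. Within groups, all library pairs differed beyond sampling noise (largest chi-square p = 0.00581). Intervals and limits for 0 counts cover counting error only. Python 3.11.15, pandas 2.3.3, scipy 1.17.1 and matplotlib 3.10.9 were used for other steps.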

Additional observations from a re-analysis of the deposited data

How the results depend on the processing

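No member circRNA and no member host gene passed the threshold under any setting: other scaling, other filters, DESeq2, the replicate block or leaving out each library. Without control replicate 2, 1 circRNA and 1 host gene outside the families passed; leaving out each library in turn gave counts from 0 to 1 for both. TMM factors from the whole table, which were used first and replaced by factors from the filtered table after their results were seen, gave 0 calls, log2 fold changes of 0.38 for hsa_circ_0000213 of UPF2 and 0.022 for hsa_circ_0000523 of METTL3, and a median of 0.21 over all 91 circRNAs, against 0.14 with factors from the filtered table. The METTL3 circRNA also turned positive with the filter at a mean of 2 (0.013) and with no filter (0.023). Leaving out each library gave log2 fold changes from -0.089 to 1.41 for the UPF2 circRNA, -0.15 to 0.059 for the METTL3 circRNA, -0.12 to 0.010 for the METTL3 host sum, -0.92 to 0.058 for RBM39 and 0.17 to 1.07 for UPF2 summed. The difference in the members' read share was 0.452 percentage points. With members and all other circRNAs both limited to a mean of at least 2 reads, so that the share is of those reads alone, it was 0.149. With both limited to circRNAs read in 2 or more libraries, an alternative chosen after seeing the data, it was 0.260. It ran from 0.305 to 0.631 with a library left out. With at least 10 reads, 0 member circRNAs were lower in every MPA library. Libraries of equal number had correlations of -0.07, 0.16 and 0.33 between their deviations, and MPA and control libraries of unlike number from -0.29 to 0.11. These few values cannot decide whether the numbers pair the libraries. The replicate block gave 0 calls, with log2 fold changes of 0.37 for the UPF2 circRNA and -0.05 for the METTL3 circRNA. The cause of these shifts was not tested. Depth limits all comparisons, since 2 member circRNAs reached the filter.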
